A study of Mus musculus with 20 samples.

Results

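Gdf15 and 7 genes of the integrated stress response were followed through sorted mouse microglia, the resident macrophages of the brain, with Tgfbr2, the type II receptor of TGF-beta, targeted. The genes were Gdf15, Atf4, Ddit3, Ddit4, Trib3, Asns, Chac1 and Sesn2, found by their symbols, and all 8 were present among the 24394 genes of the count table. They were taken up because Gdf15 was highest in 1 library, the third T2MG library at postnatal day 15 (P15 T2MG 3), to ask whether a wider stress response was seen there. That value of Gdf15 chose the set, so it is described here with no test.

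The study sequenced poly-A RNA of 20 libraries in 6 groups, Control and T2MG at each of 3 stages. Embryonic day 16 (E16) and postnatal day 15 (P15) had 3 libraries per genotype, and postnatal day 60 (P60) had 4. T2MG cells were unable to respond to TGF-beta by genotype, per the labels, and the series' description speaks of the loss of 1 or both copies of Tgfbr2. The sources used here do not state what the Control animals carried, the promoter of any Cre or the gates of the sort, the genotype entry of P60 T2MG 4 is blank, and the strain entry is C57Bl6 and FVB for all 20 libraries. The numbers of animals in the series' description equal the numbers of libraries.

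In the integrated stress response, kinases that sense amino acid shortage, unfolded protein, lack of heme or viral RNA phosphorylate the translation factor eIF2. Most translation then slows, while the mRNA of the transcription factor Atf4 is translated more, and Atf4 protein induces genes of amino acid supply, redox balance and cell death. Atf4 activity is thus set largely at translation, which counts of mRNA do not measure. Gdf15 is a secreted cytokine of the TGF-beta superfamily that many stressed cells release, including stressed macrophages, and its receptor Gfral with the co-receptor Ret acts in the hindbrain to lower appetite.

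Promoter sequences (250 bases before to 50 bases after the gene start, 300 in all, RefSeq, build GRCm38.p6) were matched by symbol for 8 of 8 genes. They were searched on both strands for the core of the C/EBP-ATF response element that Atf4 binds, TGATG, any base, AA. The core was present for 3 of the 8 genes, Asns, Chac1 and Trib3, against 4.51% of all 27025 genes with a promoter in the table. A match of letters is a description and not a site in use. The promoter of Gdf15 at its first start is shown because the results turn on this gene, and those of Asns, Chac1 and Trib3 because they hold the core, which is in capitals (a match on the opposite strand reads TT, any base, CATCA). All are written 5′ to 3′ on the strand of the gene.
Gdf15 (chr8:70632407-70632706, minus strand): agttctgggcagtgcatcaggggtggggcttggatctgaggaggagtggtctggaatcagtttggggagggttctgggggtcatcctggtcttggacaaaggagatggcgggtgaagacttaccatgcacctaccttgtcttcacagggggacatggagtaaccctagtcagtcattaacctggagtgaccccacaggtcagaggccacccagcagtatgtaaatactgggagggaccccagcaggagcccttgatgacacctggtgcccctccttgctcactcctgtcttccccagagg
Asns (chr6:7693160-7693459, minus strand): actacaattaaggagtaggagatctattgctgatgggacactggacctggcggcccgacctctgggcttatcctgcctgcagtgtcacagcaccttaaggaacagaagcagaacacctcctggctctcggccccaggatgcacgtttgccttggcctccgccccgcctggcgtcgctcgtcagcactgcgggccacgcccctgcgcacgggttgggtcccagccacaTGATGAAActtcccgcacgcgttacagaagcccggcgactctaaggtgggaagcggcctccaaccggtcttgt
Chac1 (chr2:119350992-119351291, plus strand): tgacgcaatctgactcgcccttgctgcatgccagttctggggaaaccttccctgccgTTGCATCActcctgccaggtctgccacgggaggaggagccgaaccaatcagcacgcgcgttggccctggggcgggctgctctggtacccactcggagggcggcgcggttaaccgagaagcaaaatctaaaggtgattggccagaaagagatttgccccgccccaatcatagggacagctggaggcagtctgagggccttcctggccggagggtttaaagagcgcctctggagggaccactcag
Trib3 (chr2:152344011-152344310, minus strand): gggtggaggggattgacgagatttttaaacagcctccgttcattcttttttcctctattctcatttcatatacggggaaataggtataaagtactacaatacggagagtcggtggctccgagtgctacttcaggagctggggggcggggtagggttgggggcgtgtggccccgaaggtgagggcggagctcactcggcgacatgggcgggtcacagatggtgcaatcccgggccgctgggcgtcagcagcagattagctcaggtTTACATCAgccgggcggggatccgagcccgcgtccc
Counted from the gene start, the core lay at -23 to -16 in Asns, on the strand of the gene. It lay at -193 to -186 in Chac1 and at 15 to 22, inside the transcript, in Trib3, both on the opposite strand. The second annotated start of Gdf15 held no core either. The ER stress response element (CCAAT, any 9 bases, CCACG) was in 0 of the 8 genes and in 0.137% of all genes.

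Levels are in CPM, a gene's reads per 1000000 reads of its library after TMM scaling. A gene was called at an adjusted p under 0.05 over all genes tested. Tests of comparisons that hold P15 T2MG were run on 19 libraries, without P15 T2MG 3, and Gdf15 got no p in them. The other tests used a fit of all 20 libraries, so P15 T2MG 3 entered their estimate of the spread. Adjusted p-values are from edgeR's quasi-likelihood test with Benjamini-Hochberg adjustment, and fold changes are given as log2 values with their standard error (SE).

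Total counts were 7456271 to 9241860 at E16 and 12746382 to 16551240 later, so the lowest genes rest on few reads, above all before birth. Tgfbr2 had 165 to 293 CPM at E16, and at P15 228 to 471 CPM for T2MG and 501 to 642 CPM for Control. At P60 it had 452 to 647 CPM for T2MG and 551 to 649 CPM for Control, and counts over the whole gene may not show a deleted part, so it checks the labels weakly. All 6 microglia markers had counts in every library, and their summed level was lower in T2MG at each stage (at P60 8789 to 9878 against 51955 to 69105 CPM). The libraries P15 T2MG 3 and P60 Control 1 stood apart from their groups. In P15 T2MG 3 the summed level of 6 monocyte markers was 23336 CPM against 5089 and 2623 CPM in T2MG 1 and 2. In P60 Control 1 that of 6 neutrophil markers was 6285 CPM against 70.7 to 114 CPM in the other 3 Control libraries, and that of the monocyte markers 2003 against 49.7 to 89.7 CPM. In bulk RNA, fewer cells of a type and less RNA per cell cannot be told apart.

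Gdf15 was low before birth and was high in T2MG after birth. Before birth, at E16, its level was 2.67, 0.911 and 1.13 CPM for Control and 0.759, 1.02 and 0.638 CPM for T2MG, from 7 to 27 reads per library. The P15 libraries had 1.39, 1.62 and 2.68 CPM for Control against 69.8, 56.9 and 575 CPM for T2MG. The P60 libraries had 2.63, 2.41, 1.88 and 3.28 CPM for Control against 55.2, 33.2, 43.5 and 45.1 CPM for T2MG. The genotypes overlapped at E16 and were apart at P15 and P60, where the lowest T2MG library stood far above the highest Control library. At P60 the mean was 44.3 ± 8.99 CPM for T2MG and 2.55 ± 0.579 CPM for Control (SD, n = 4 each), and Gdf15 rose by 4.12 on the log2 scale (SE 0.60, adjusted p 3.45e-05, edgeR), a 17.3-fold difference. At E16 its log2 fold change was -0.95 (SE 0.92, adjusted p 0.622, edgeR). At P15 it was 5.05 without T2MG 3 (SE 0.37) and 6.94 with it, given without a test.

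The difference of the genotype effect on Gdf15 between stages was tested for P60 against E16, stages that do not hold P15 T2MG 3. That library did enter the fit of all 20 libraries, and so the spread behind the SE and p. The effect was larger at P60 by 5.06 on the log2 scale (SE 1.08, adjusted p 0.00287, edgeR). It was 4.90 and did not pass with limma voom (adjusted p 0.204), and the difference ranged from 4.47 to 5.32 when 1 library at a time was left out. Between P15 and P60 in T2MG, Gdf15 had a log2 fold change of -0.51 without P15 T2MG 3 and -2.40 with it. The order of group means ran from E16 T2MG (0.805 CPM) through E16 Control (1.57), P15 Control (1.90) and P60 Control (2.55) to P60 T2MG (44.3) and P15 T2MG (234, or 63.3 without T2MG 3). Neighbours among the lowest 4 groups overlapped in their libraries, whereas P60 Control and P60 T2MG did not, nor, narrowly, did P60 T2MG (at most 55.2 CPM) and P15 T2MG (at least 56.9 CPM).

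Some markers of other cells differed between the genotypes at the same stages. The summed level of 6 markers of border-associated macrophages was 1499 to 2830 CPM for T2MG and 148 to 174 CPM for Control at P15, and 5529 to 8276 against 44.2 to 227 CPM at P60. That of 5 oligodendrocyte markers was 732 to 798 against 135 to 366 CPM at P15 and 776 to 1540 against 164 to 253 CPM at P60. The neutrophil markers were apart at P15 (8242 to 26116 against 2271 to 6640 CPM) and overlapped at P60 (973 to 1897 against 70.7 to 6285 CPM). The monocyte markers were likewise apart at P15 (2623 to 23336 against 1482 to 2420 CPM) and overlapped at P60 (1386 to 3639 against 49.7 to 2003 CPM). None of these markers was at 0 in a whole group. Choroid plexus markers were lower in T2MG at P15 (1324 to 4318 against 9218 to 17674 CPM) and overlapped at P60. Astrocyte markers overlapped at P15 and were lower at P60 (102 to 164 against 206 to 237 CPM). Neuron markers were higher at P15 (31.4 to 70.4 against 5.54 to 23.4 CPM) and at P60 (30.0 to 42.9 against 3.27 to 20.9 CPM). Erythroid markers overlapped at P15 and were higher at P60 (98.0 to 323 against 45.3 to 57.9 CPM). P60 Control 1, with the highest neutrophil markers of that stage, had Gdf15 within the range of the other Control libraries (2.63 against 1.88 to 3.28 CPM). As a single Control library, it does not show how much Gdf15 such cells had in T2MG. The part of these other cells in the rise of Gdf15 was not tested.

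**Figure D1:**
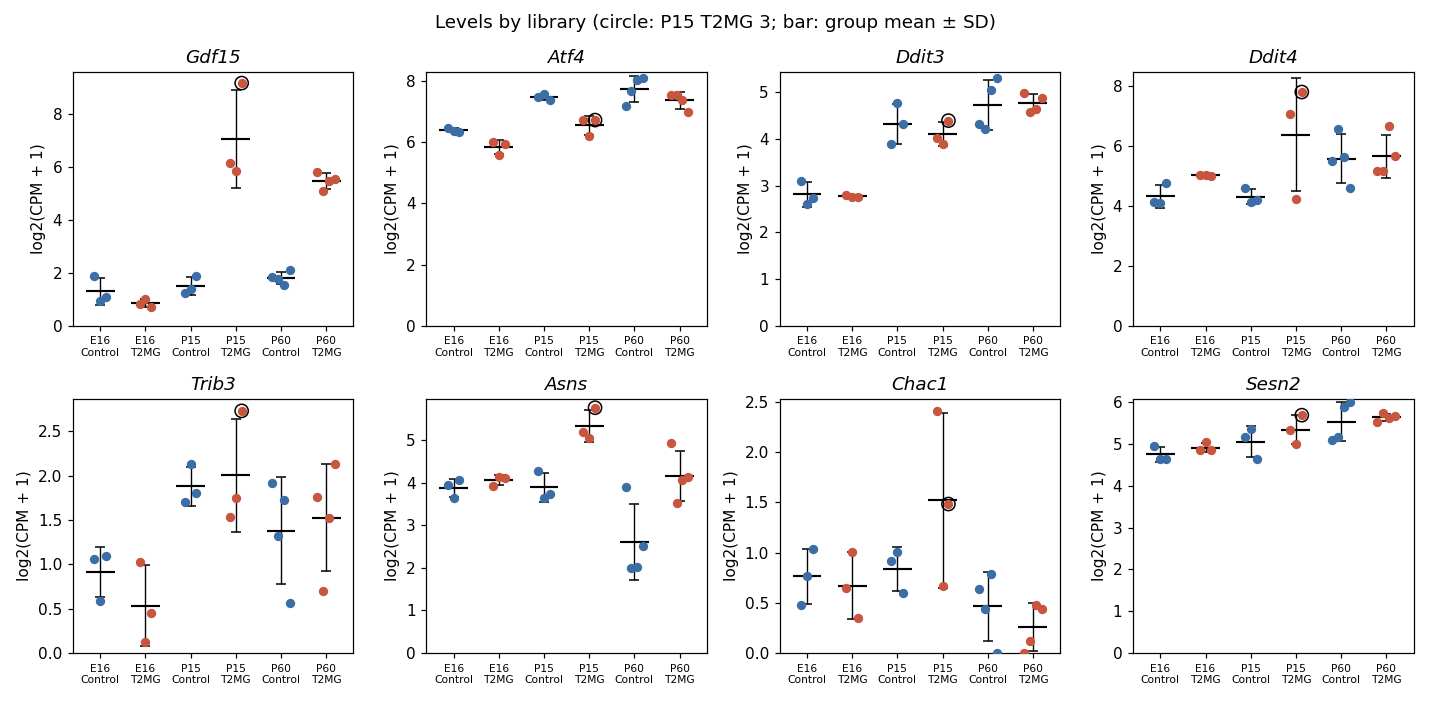
CPM of the 8 genes in each of the 20 libraries, on a log2(CPM + 1) axis, by group, with 1 point per library (blue Control, red T2MG, a ring around P15 T2MG 3) and bars for the group mean and SD on that axis. Gdf15 is high in the T2MG libraries of P15 and P60 alone, with 575 CPM in P15 T2MG 3, while the other 7 genes show no such separation at both stages.

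Atf4, the transcription factor at the centre of the response, did not rise with Gdf15 at the level of mRNA. Its levels at E16 were 88.2, 82.2 and 80.6 CPM for Control and 63.4, 47.2 and 61.1 CPM for T2MG. At P15 they were 176, 191 and 166 CPM for Control and 106, 72.6 and 105 CPM for T2MG. At P60 they were 144, 204, 261 and 275 CPM for Control and 187, 184, 168 and 125 CPM for T2MG. T2MG lay below Control in every library at E16 and P15, and the genotypes overlapped at P60. Without P15 T2MG 3, Atf4 fell by 0.99 at P15 (SE 0.25, adjusted p 0.00967, edgeR), a call that ended without T2MG 2 (-0.75, adjusted p 0.106). That fit holds T2MG 1 as the single T2MG library of P15, which is assumed to vary like the other groups. Its log2 fold change was -0.55 at E16 (SE 0.21, adjusted p 0.195) and -0.41 at P60 (SE 0.18, adjusted p 0.0852). At P60 the fall passed the test without Control 1 (-0.57, adjusted p 0.00747) and with DESeq2 (-0.48, adjusted p 0.0412).

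Ddit3 encodes CHOP, the transcription factor tied to cell death in prolonged stress. It had 5.06 to 7.62 CPM in all 6 libraries of E16. Levels at P15 were 13.8, 26.1 and 18.9 CPM for Control and 15.2, 13.9 and 20.03 CPM for T2MG. Levels at P60 were 18.8, 17.6, 32.2 and 38.4 CPM for Control and 30.8, 22.9, 24.2 and 28.3 CPM for T2MG. The genotypes overlapped at each stage, with log2 fold changes of -0.07 at E16, -0.43 at P15 and -0.01 at P60 (adjusted p 0.933, 0.382 and 0.985, edgeR). Ddit3 overlaps Mars on the other strand by 68 bases and a second record of the same symbol, and the strand setting of the counting is not given, so whether reads of these records were counted for it is uncertain.

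Asns, asparagine synthetase, a classical target of Atf4 whose promoter core is shown above, was the other gene of the set that rose at P60. At P60 it had 13.8, 2.98, 3.04 and 4.72 CPM for Control and 29.6, 10.4, 15.7 and 16.4 CPM for T2MG. Control 1 alone reached into the range of T2MG, and the other 3 Control libraries lay below every T2MG library. Asns rose by 1.55 at P60 (SE 0.42, adjusted p 0.00646, edgeR), and by 2.33 without Control 1 (adjusted p 1.54e-05). At P15 it had 18.3, 11.5 and 12.4 CPM for Control and 35.4, 31.8 and 52.97 CPM for T2MG, with no overlap. The log2 fold change at P15 was 1.25 without T2MG 3 (SE 0.51, adjusted p 0.1001, edgeR), and it passed the test when only the P15 libraries were fitted (1.24, adjusted p 0.0129) and with limma voom (1.27, adjusted p 0.01). Its E16 levels were 14.3, 11.4 and 15.7 CPM for Control and 14.1, 16.53 and 16.3 CPM for T2MG, which overlapped (0.18, SE 0.47, adjusted p 0.875).

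Ddit4 encodes REDD1, an inhibitor of mTORC1 that stress, hypoxia and glucocorticoids can each induce. At P15 it had 23.1, 16.52 and 17.5 CPM for Control and 135, 17.8 and 223 CPM for T2MG. T2MG 2 lay at the level of Control, while T2MG 1 and T2MG 3 stood above all others. In T2MG 1, 2 and 3 the neutrophil markers (26116, 8242 and 22008 CPM) and monocyte markers (5089, 2623 and 23336 CPM) were also lowest in T2MG 2. Not every marker list was, for example that of microglia (7377, 7921 and 3355 CPM). The part of other cells in the Ddit4 levels was not tested. Ddit4 was called higher at P15 without T2MG 3 (2.00, SE 0.63, adjusted p 0.0368, edgeR), but without T2MG 1 the value was -0.10 (adjusted p 0.967). That fit holds T2MG 2 alone, which is assumed to vary like the other groups. The P60 levels were 44.9, 94.7, 48.6 and 23.5 CPM for Control and 35.0, 34.8, 102 and 49.6 CPM for T2MG, which overlapped (0.06, SE 0.53, adjusted p 0.945). At E16 it had 16.4, 15.98 and 26.3 CPM for Control and 32.1, 31.96 and 31.2 CPM for T2MG, apart but not past the test (0.70, SE 0.62, adjusted p 0.593).

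Sesn2, a leucine sensor that restrains mTORC1, showed no called difference between genotypes. It had 24.01 to 30.1 CPM for Control and 27.7 to 32.05 CPM for T2MG at E16. The P15 levels were 34.9, 39.9 and 23.8 CPM for Control and 39.6, 30.8 and 50.5 CPM for T2MG. The P60 levels spanned 33.1 to 62.6 CPM for Control and 45.3 to 51.96 CPM for T2MG. Its log2 fold changes were 0.16, 0.10 and 0.05 at E16, P15 and P60 (adjusted p 0.765, 0.835 and 0.874, edgeR). Sesn2 overlaps Gm12981, a record of the antisense type but on the same strand as Sesn2, along 6089 bases. Whether reads of that record were counted for Sesn2 is uncertain.

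Trib3, a pseudokinase induced by Ddit3 and Atf4, and Chac1, an enzyme that degrades glutathione, rested on few reads. Trib3 had 1 to 14 reads at E16, 25 to 69 at P15 and 6 to 47 at P60. At P15 it had 2.27, 3.38 and 2.49 CPM for Control and 1.89, 2.35 and 5.64 CPM for T2MG. Chac1 had at most 15 reads in all but 2 libraries, P15 T2MG 1 with 57 reads (4.31 CPM) and P15 T2MG 3 with 22 reads (1.80 CPM). It had 0 reads in P60 Control 4 and P60 T2MG 1, where 3 reads would be 0.240 and 0.211 CPM, counting error only. Log2 fold changes at P60 were 0.23 for Trib3 (SE 0.61, adjusted p 0.799) and -0.94 for Chac1 (SE 0.91, adjusted p 0.441, edgeR), and neither gene was called at E16 or P15.

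The genes called in each comparison were counted beside all genes. At E16, 0 of the 8 genes were called with edgeR (1 at an unadjusted p under 0.05, 0 with DESeq2 and 0 with limma voom), when 3.2% of all genes were. At P15, 2 of the 7 genes other than Gdf15 were called, Ddit4 higher and Atf4 lower, and 17.9% of all genes were. At P60, 2 of 8 were called, Gdf15 and Asns, both higher, and 39.3% of all genes were. With so few genes, nothing is read about the set from these shares. The median log2 fold change over the set was -0.15 at E16, 0.10 at P15 (7 genes) and 0.06 at P60, beside 0.04, 0.00 and 0.14 over all genes tested. Of the differences of the genotype effect between stages, 1 of 8 genes was called for P60 against E16, Gdf15, and 20.2% of all genes were. For P15 against E16, 0 of 7 genes were called with edgeR (0 at an unadjusted p under 0.05, 0 with DESeq2 and with limma voom), and 14% of all genes were. For P60 against P15, 0 of 7 were called (1 at an unadjusted p under 0.05, 0 with the other 2 tools), and 6.23% of all genes were.

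**Figure D2:**
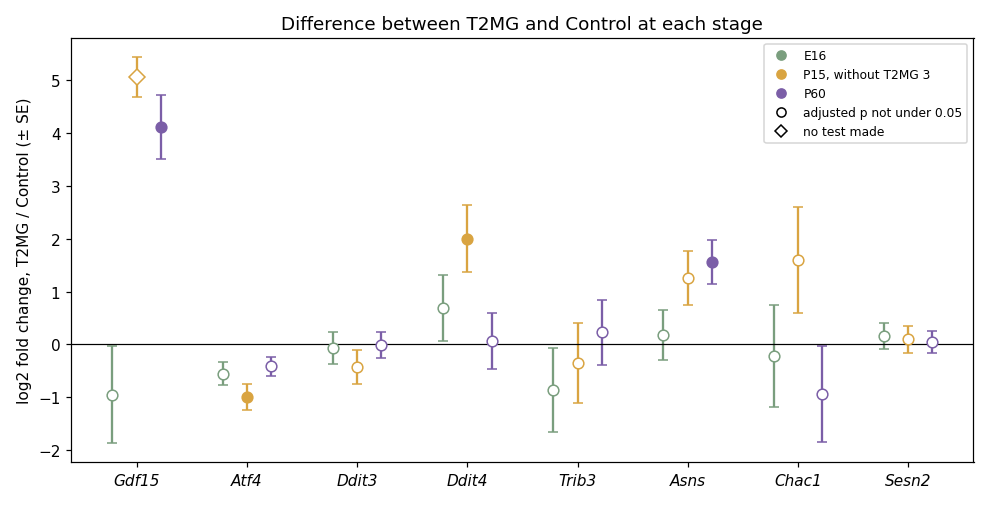
Log2 fold change of T2MG against Control for the 8 genes at E16, P15 and P60, with bars of 1 SE. P15 is without T2MG 3, and Gdf15 at 5.05 (P15) and 4.12 (P60) lies above every other gene.

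The library P15 T2MG 3 was then set against T2MG 1 and 2 of its own group, as the log2 ratio of its CPM + 1 to their mean CPM + 1. This is 1 library, so no test applies. Gdf15 had 8.95 times the level of the others (log2 ratio 3.16), rank 16 of 15568 genes. Of the other 7 genes, 5 were highest in T2MG 3, namely Ddit3, Ddit4, Trib3, Asns and Sesn2, where 32.8% of all genes were highest there. At least a 2-fold ratio was seen for 2 of 7, Ddit4 (1.54) and Trib3 (1.09, 69 reads), and for 4.1% of all genes. The others had log2 ratios of 0.64 (Asns), 0.51 (Sesn2), 0.43 (Ddit3), 0.23 (Atf4) and -0.30 (Chac1), with a median over the 7 of 0.51 beside -0.05 over all genes. Atf4 was as high in T2MG 1 (106 CPM) as in T2MG 3 (105 CPM). Across the 20 libraries, each set against the others of its group, the count of the 7 genes that were highest ran from 0 to 5, and P15 Control 2 also had 5. The median log2 ratio over the 7 genes was the highest of the 20 libraries in P15 T2MG 3 (0.51), followed by P60 Control 3 (0.36) and P15 Control 2 (0.25).

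The other targets of Atf4 did not stand apart in P15 T2MG 3. Of 26 further targets tested, 9 were highest and 9 lowest there, with a median log2 ratio of -0.07. Of 12 aminoacyl tRNA synthetases, which Atf4 also induces, 3 were highest (median -0.05), and of 20 genes of the unfolded protein response 7 were (median -0.04). Of 14 genes of the eIF2 kinases, eIF2, its exchange factor eIF2B and phosphatases, 7 were highest there (median 0.20). Over all genes, 32.8% were highest there, with a median of -0.05. Glucocorticoid targets were highest there for 7 of 7 genes (median 1.22), and 4 of the 7 reached a 2-fold ratio, as did 4.1% of all genes. Among the 7, Klf9 had 299 CPM against 38.4 and 31.4 CPM, and Fkbp5, a co-chaperone of the glucocorticoid receptor, 793 against 146 and 78.2 CPM. Sgk1 (428 against 360 and 422 CPM) and Per1 (45.4 against 43.3 and 23.2 CPM) stood little above the next library. Hypoxia targets were highest there for 6 of 10 (median 0.55), NRF2 targets for 6 of 9 (median 0.40) and p53 targets for 6 of 13 (median -8.93e-05). Heat shock genes were lowest there for 8 of 8 (median -1.77), where 37.3% of all genes were, for example Hspa1a with 59.6 CPM against 132 and 970 CPM.

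The highest ratios in P15 T2MG 3 were described among genes with a P15 T2MG mean of at least 10 CPM, a mean that includes this library. The top 5 were the acute-phase protein Saa3 (427 CPM against 9.61 and 5.49), the mast cell tryptase Tpsab1 (148 against 7.34 and 0.0653), the leukocyte adhesion molecule Amica1 (951 against 34.0 and 31.6), Gm10684 (209 against 7.57 and 7.38) and the decoy receptor Il1r2 (1040 against 58.2 and 27.8). Of these, Saa3, Tpsab1 and Gm10684 lay under 10 CPM in both other libraries and so passed that minimum through T2MG 3 alone. Gdf15 was the 15th of 8975 such genes. Chil3, a monocyte marker of the list above, had 19401 CPM in T2MG 3 against 3311 and 892 CPM, and the neutrophil markers summed to 22008 CPM in T2MG 3 against 26116 and 8242 CPM. The microglia markers summed to 3355 CPM there against 7377 and 7921 CPM. Of the endothelial markers 3 of 5 had counts in this library, as in P60 Control 4. Of the erythroid markers 2 of 5 had counts, as in every library of the series. Every marker of the other 8 lists had counts in P15 T2MG 3. The part of other cells in the Gdf15 level of P15 T2MG 3 was not tested. In T2MG 1 and T2MG 2, Gdf15 had 69.8 and 56.9 CPM. Their monocyte markers (5089 and 2623 CPM) lay below those of T2MG 3 and above those of P15 Control (1482 to 2420 CPM).

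**Figure D3:**
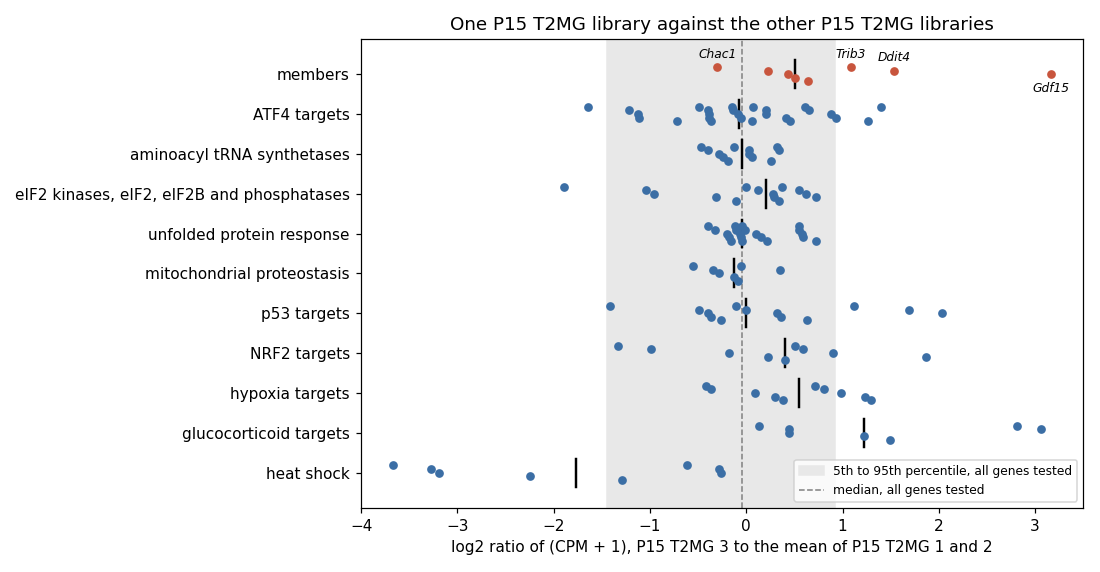
Log2 ratio of P15 T2MG 3 to the mean of P15 T2MG 1 and 2 for each gene, by list, with a black bar at the list's median (for the 8 genes of the set, the median of the 7 without Gdf15) a dashed line at the median of all genes tested and a grey band for the percentile range of all genes given in the legend. The 7 glucocorticoid targets lie to the right of 0 and the 8 heat shock genes to the left, while the 26 further Atf4 targets spread to both sides.

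The pathway around these genes was read through 11 lists, with no test of a list. At P60, where 39.3% of all genes were called, 4 of 26 further Atf4 targets rose and 9 fell with edgeR. Phgdh, the first enzyme of serine synthesis, fell by 3.37 (SE 0.24, adjusted p 1.23e-08), its group mean going from 205 to 19.9 CPM. The stress protein Nupr1 fell by 3.19 (adjusted p 3.45e-06), the amino acid transporter Slc7a5 by 1.63 (adjusted p 3.87e-06) and Cebpg, a partner of Atf4 on DNA, by 0.92 (adjusted p 1.32e-05). The aminoacyl tRNA synthetases fell for 7 of 12 and rose for 0 of 12 (median -0.60, beside 0.14 over all genes), among them Yars by 1.27 (adjusted p 9.8e-09), Mars by 1.06, Aars by 0.84 and Wars by 0.56. Of the unfolded protein response, the sensor Atf6 rose by 1.27 (adjusted p 4.3e-06) and the chaperone Pdia4 by 0.44, Edem1, of ER-associated degradation, fell by 1.12, and 17 of 20 were not called. Asns was higher at P60 in the same T2MG libraries in which 16 of the 20 genes called in the Atf4 target and tRNA synthetase lists were lower.

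Of the eIF2 kinases, eIF2, its exchange factor eIF2B and phosphatases, 0 of 14 rose and 3 fell at P60, Eif2b4 (-0.58), Gcn1l1 (-1.11) and Eif2b3 (-0.42). Among all genes, 39.3% were called at P60, higher and lower together. The mitochondrial chaperone Trap1 rose by 0.55, 1 of 7 genes of mitochondrial proteostasis called. Gfral, the receptor of Gdf15, was too low to be tested, and its co-receptor Ret was not called at E16 or P60, nor at P15 without T2MG 3, though it was at P60 without Control 1.

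Lists of other stress pathways were read in the same way at P60, where 39.3% of all genes were called, higher and lower together. Of 13 p53 targets 6 rose and 1 fell, with a median of 0.67 on the log2 scale, beside 0.14 over all genes. Pmaip1, which encodes the death protein NOXA, rose by 3.37 (SE 0.18, adjusted p 6.92e-10), with group means of 35.9 and 371 CPM. The kinase Plk2 rose by 3.75 (adjusted p 8.57e-09), the death effector Bax by 0.67 (adjusted p 0.000168) and the cell cycle inhibitor Cdkn1a by 1.78 (adjusted p 0.000829, edgeR). Of 9 NRF2 targets 5 rose and 2 fell. Hmox1, heme oxygenase, rose by 1.32 and Osgin1 by 1.86, whereas Gclc, of glutathione synthesis, fell by 1.98 and the reductase Txnrd1 by 1.39. Of 10 hypoxia targets 1 rose and 4 fell, among them the glucose transporter Slc2a1 (-2.13), P4ha1 (-0.90) and Pfkfb3 (-1.36), while Ankrd37 rose by 1.43. Of 7 glucocorticoid targets Klf9 rose by 2.87 and the kinase Sgk1 fell by 3.76, and of 8 heat shock genes Hspb1 fell by 2.87. Without P60 Control 1 the hypoxia targets called numbered 8 in place of 5, and the unfolded protein genes 5 in place of 3.

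**Figure D4:**
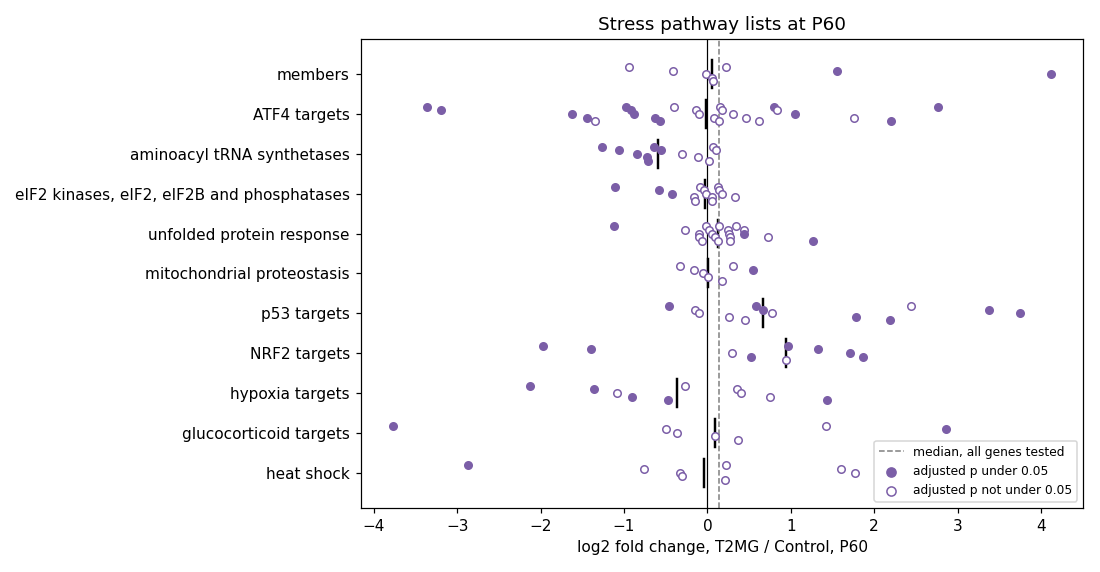
Log2 fold change of T2MG against Control at P60 for each gene tested, by list, with filled points for genes called at an adjusted p under 0.05, black bars at list medians and a dashed line at the median of all genes. The 7 called tRNA synthetases are all lower in T2MG, and of the 7 called p53 targets 6 are higher, where 39.3% of all genes were called.

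At P15, without T2MG 3, 17.9% of all genes were called. Of the 26 further Atf4 targets 3 rose and 5 fell, with Shmt2 (0.84), Eif4ebp1 (1.03) and Jdp2 (1.56) higher and Cebpg, Phgdh, Slc7a5, Ppp1r15a and Nupr1 lower by 0.80 to 1.80. These counts were 8 in all, and 5 without T2MG 1, which leaves 1 T2MG library. Of the tRNA synthetases 3 of 12 fell, Yars (-0.62), Nars (-0.68) and Aars (-0.57). Of the p53 targets Bax (0.96), Pmaip1 (1.10) and Plk2 (1.11) rose and Mdm2 fell by 0.76. The NRF2 targets G6pdx and Osgin1 rose by 0.97 and 1.08 and Gclc fell by 1.06, the hypoxia targets Pfkfb3, P4ha1 and Slc2a1 fell by 1.78, 1.05 and 0.76, and Sgk1 fell by 3.34. Atf6 rose by 0.69, Hspb1 fell by 2.10 and Dnajb1 by 1.41 (adjusted p of the genes named for P15 at most 0.0204, edgeR). At E16, 5 listed genes were called, all lower, where 3.2% of all genes were called. They were Atf3 (-1.67), Edem1 (-0.97), Gclc (-0.72), P4ha1 (-0.64) and Sgk1 (-2.20, adjusted p at most 0.0406, edgeR). Each was the only gene called of its list, with 26, 20, 9, 10 and 7 genes tested. Across all genes at E16, edgeR with RLE scaling called 312 lower and 91 higher, and DESeq2 647 and 339. With limma voom, 483 were lower and 715 higher.

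In Control, Atf4 and Ddit3 were higher at P15 than at E16. From E16 to P15 Control, Atf4 rose by 1.09 (SE 0.21, adjusted p 0.000541, edgeR), with means of 83.7 ± 4.00 and 178 ± 12.9 CPM (SD, n = 3 each), with no overlap between the stages. Ddit3 rose by 1.68 (SE 0.30, adjusted p 0.000227), with means of 6.11 ± 1.34 and 19.6 ± 6.20 CPM (SD, n = 3 each). These were 2 of 8 genes, when 50.7% of all genes were called, and E16 libraries differed from later ones in depth, so age and library making cannot be told apart. From P15 to P60 Control, 0 of 8 were called with edgeR (3 at an unadjusted p under 0.05, 2 with DESeq2, 1 with limma voom), when 18.6% of all genes were. Without P60 Control 1 there were 3, Asns lower by 1.98 (adjusted p 0.000229) and Atf4 and Sesn2 higher by 0.47 and 0.65 (adjusted p 0.0458 and 0.0301). In T2MG from P15 to P60, without P15 T2MG 3, 2 of 7 genes were called and 14.8% of all genes were. Atf4 rose by 0.90 (SE 0.24, adjusted p 0.0182), which ended without P15 T2MG 2 (0.65, adjusted p 0.149). Chac1 fell by 3.48 (SE 1.00, adjusted p 0.0278), which ended without P15 T2MG 1 (-1.44, adjusted p 0.556), the library with 57 of its reads. Both of these fits hold 1 P15 T2MG library, assumed to vary like the other groups.

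The genes whose levels followed Gdf15 most closely over the 20 libraries were picked by Pearson's r of log2(CPM + 1), as a description. They were Nucb2, a calcium-binding protein (r = 0.96), the transporter Slc10a6 (0.94), Arhgap9 (0.94), the membrane-remodelling ESCRT subunit Chmp1a (0.94) and the lysosomal sialidase Neu1 (0.94). In the group means Nucb2 had 19.5 to 29.5 CPM in E16 and in the later Control groups and 94.2 and 72.0 CPM in P15 and P60 T2MG. Slc10a6 had group means of 0.577 to 2.07 CPM in the same 4 groups and 31.8 CPM in P60 T2MG. The P15 T2MG libraries had 13.8, 11.6 and 67.3 CPM of Slc10a6, with T2MG 3 far above T2MG 1 and T2MG 2. The choice by r used P15 T2MG 3 as well, so it favours genes that are high in that library. Within the set r with Gdf15 was 0.62 for Ddit4, 0.61 for Asns, 0.54 for Trib3, 0.52 for Sesn2, 0.46 for Ddit3, 0.22 for Chac1 and 0.10 for Atf4. Libraries of a group share stage and genotype, so these values include the differences between the groups.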

How the data were processed

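Poly-A RNA of sorted microglia from 20 libraries in 6 groups was sequenced after low-input amplification of cDNA, per the labels' protocols. The deposited values are raw counts, whole numbers of reads for each gene symbol and library. The submitters' processing notes name TopHat2 (0.7), Cufflinks (2.2.1) and mm10, with no role for each. The sources used here do not say how reads were counted, with which annotation or whether by strand. Of 24421 entries, 27 with a date in place of a symbol were left out (0.122% to 0.256% of a library's counts). Amplified reads without molecular identifiers are not independent molecules, so floors of 3 counts cover counting error only.

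In R 4.3.3, edgeR 4.0.16 (default expression filter by group, TMM, group-means model, quasi-likelihood F test, Benjamini-Hochberg adjustment over all genes tested) was run on the counts. All 20 libraries entered the fit for E16, P60 and Control comparisons (15568 genes), and 19 libraries, without P15 T2MG 3, the others (15855 genes), since that library chose the set. SE is the log2 fold change over the square root of F. The scripts were tested on simulated data. limma 3.58.1 (voom) and DESeq2 1.42.0 (RLE size factors) were alternatives, with RLE scaling in edgeR, no expression filter, a replicate block, a fit of the compared groups alone and each library left out in turn. Replicate libraries differed by 5.08 to 146 in chi-square per gene, so no pair agreed within sampling noise.

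The genes and lists were chosen with earlier results of these data known. Named were the 8 genes, Tgfbr2, the 5 genes most like Gdf15, up to 4 called genes of each list by smallest adjusted p at each stage, and the 5 genes with the highest ratio in P15 T2MG 3. Phgdh, Slc7a5, Ppp1r15a and Nupr1 at P15 were chosen after their values were seen. So were Klf9, Fkbp5, Sgk1, Per1, Hspa1a, Cebpb, Jdp2, Pck2, Slc6a9 and Chil3 in P15 T2MG 3.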

Additional observations from a re-analysis of the deposited data

Results flagged for a closer look

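Asns in P60 Control 1 stood far from its group, with 13.8 CPM against 2.98 to 4.72 CPM in the other 3 Control libraries, 1 of 16 groups of 4 libraries of the 8 genes that were examined for such a gap. Chance alone gives such a gap in about 1 in 20 groups. The same library had neutrophil markers of 6285 CPM against 70.7 to 114 CPM, and whether the one goes with the other was not tested.

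The genotype effect on Gdf15 differed between stages. It was larger at P60 than at E16 by 5.06 on the log2 scale (edgeR, adjusted p 0.00287), a call that limma voom did not make (4.90, adjusted p 0.204), with 4 of 4 T2MG libraries above every Control library at P60 and overlapping genotypes at E16.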

How the results depend on the processing

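The rise of Gdf15 at P60 (4.12) passed the test in all 14 alternatives run for it, at 3.99 to 4.25, and that of Asns (1.55) in all 14, at 1.20 to 2.33. The P15 value of Ddit4 turned to -0.10 without P15 T2MG 1 (range -0.10 to 2.82 with 1 library left out), and its call also ended with limma voom, the replicate block, the compared groups alone and each P15 Control library left out. Counts of the genes of the set called moved as follows. With the replicate block there were 1 at P15 (main 2), 0 for Control P15 against E16 (main 2), 0 for T2MG P60 against P15 (main 2) and 2 for the difference between P60 and E16 (main 1). With limma voom there were 1 for Control P60 against P15 (main 0) and 0 for the difference between P60 and E16, and with DESeq2 2 for Control P60 against P15. With the compared groups alone there was 1 for the difference between P15 and E16 (main 0). Leaving out 1 library at a time gave 1 in every case at P15, 0 to 3 for Control P60 against P15, 1 to 2 for T2MG P60 against P15, 0 to 1 for the difference between P60 and P15 and 1 to 2 for that between P60 and E16. Listed genes called at E16 (main 5) numbered 3 with the replicate block, 2 with the compared groups alone and 1 to 10 with 1 library left out, the lowest without E16 Control 2 or E16 T2MG 1 and the highest without E16 Control 3. At P15 (main 25) they numbered 16 to 25 with 1 library left out, the lowest without P15 T2MG 1. Without P15 T2MG 1 or 2 the fits hold 1 P15 T2MG library, assumed to vary like the other groups. The causes of the other changes were not tested.

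Replicate numbers did not pair the libraries. The deviations of same-numbered Control and T2MG libraries from their group means had r from -0.07 to 0.32 over genes, and libraries did not all match their own number best, so the block shares only a number. Of 1067 recomputed estimates of single genes, 1025 kept their call, 17 lost and 19 gained it, 1 reversed and 5 values of Gdf15 without a test moved; 71 estimates that were not called in either fit changed sign. RLE in place of TMM scaling moved the median of all genes for P60 against E16 from 0.15 to 0.05 and that at P60 from 0.14 to 0.07 on the log2 scale. Depth limits Trib3, Chac1 and, at E16, Gdf15, which rest on few reads.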
